A study of Mus musculus with 16 samples.

Results

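The Slc25 genes encode the mitochondrial carriers, and 34 of the 42 symbols of the form Slc25a followed by a number were described here, in glomerular RNA of diabetic mice. Within the family they were chosen by level, as symbols with at least 1 FPKM (fragments counted per length of transcript and per total of mapped fragments) in at least 7 of 16 libraries. The whole table held 25791 symbols, and 13286 passed the same filter and were tested. All 16 libraries came from mice of the genotype eNOS-/- // db/db, which lack endothelial nitric oxide synthase and carry the leptin receptor mutation that gives obesity and diabetes. There were 9 libraries from untreated mice and 7 from mice given lisinopril at 20 mg per day with losartan at 30 mg per day in their water, from 10 to 12 weeks until 26 weeks of age, called RAAS-blocked below. Lisinopril inhibits the angiotensin-converting enzyme and losartan blocks the angiotensin type 1 receptor, so both drugs act on the renin-angiotensin-aldosterone system (RAAS). Glomeruli were obtained from 1 kidney by iron perfusion and a magnet, although the source is labelled as kidney. No library from a mouse without the diabetic genotype was used here, so both groups share it. The labels do not say library by library that each is a separate mouse, and p-values measure only the spread between these libraries.

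Mitochondrial carriers are small proteins of the inner mitochondrial membrane that exchange ADP for ATP and move phosphate, carboxylates, amino acids, carnitine esters and cofactors between cytosol and matrix. A few members sit in the outer membrane or in peroxisomes instead. In kidney the tubule epithelium, above all the proximal tubule and the thick ascending limb, is dense in mitochondria because it pumps sodium, while the glomerulus filters and holds fewer mitochondria. Slc34a1, the sodium-phosphate cotransporter of the proximal tubule brush border, and Umod, the uromodulin gene of the thick ascending limb, therefore serve as measures of tubule RNA in a glomerular isolate.

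The libraries held glomerular and tubular RNA in varying amounts. Podocyte markers summed to between 1557 and 4923 FPKM over all libraries, and endothelial markers to between 1594 and 3699 FPKM. Proximal tubule markers summed to 80.6 to 2024 FPKM in untreated and 47.6 to 1046 FPKM in RAAS-blocked libraries, and thick ascending limb markers to 233 to 1498 and 149 to 796 FPKM. Distal tubule markers summed to 194 to 1385 and 141 to 1023 FPKM, and collecting duct markers to 87.4 to 874 and 61.7 to 797 FPKM. The 8 markers of the mesangium and vessel wall summed to 192 to 804 FPKM in untreated and 538 to 2201 FPKM in RAAS-blocked libraries. The renin gene Ren1 had the largest difference among them, with medians of 46.3 and 1289 FPKM (log2 difference 3.85 ± 0.76, SE, adjusted p = 0.218 by limma), and the estimates of the other 7 ran from 0.11 to 0.69. The podocyte gene Podxl was listed at 0 in every library, as 1 of 9 podocyte markers. RAAS-blocked replicate 4 stood apart with 16919 symbols above 0, against 17993 to 18613 in the other libraries. The absolute sequencing depth is unknown because no counts were used. Library identifiers fell into 2 unbroken runs, 1 for each group, so the run and the treatment cannot be told apart.

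All 34 carriers reached 1 FPKM in every library, and their medians ran from 3.50 FPKM for Slc25a14 upwards. Slc25a5, the ADP/ATP translocase 2, had the highest median and contributed 27.1% of the summed medians. Its level was 460 ± 131 FPKM (SD, n = 9) in untreated and 439 ± 128 FPKM (SD, n = 7) in RAAS-blocked libraries. Slc25a3, the phosphate carrier that supplies ATP synthase, contributed 18.1%, at 294 ± 76.8 and 284 ± 74.8 FPKM. Slc25a4, the ADP/ATP translocase 1 of heart and muscle, contributed 16.6%, at 254 ± 34.3 and 234 ± 48.9 FPKM. In single libraries these 3 genes of ATP export and phosphate import held 59.7% to 67.2% of the summed FPKM of the 34 members. Slc25a4 and Slc25a5 are close paralogs, and the sources used here do not say how reads shared by such copies were assigned, which leaves their separate levels uncertain.

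Below them came Slc25a39, a carrier needed for mitochondrial glutathione, whose 9 untreated libraries ran from 59.9 through a median of 81.7 to 142 FPKM. In the 7 RAAS-blocked libraries Slc25a39 ran from 49.0 through 72.4 to 114 FPKM. Slc25a11, the oxoglutarate carrier of the malate-aspartate shuttle, ran from 44.4 through 57.6 to 78.9 FPKM untreated and from 32.8 through 51.0 to 65.8 FPKM RAAS-blocked. Slc25a1, the citrate carrier, followed at 33.7 ± 5.15 FPKM (SD, n = 9) and 31.4 ± 7.13 FPKM (SD, n = 7). For each of these 6 most abundant of the 34 members the 2 groups overlapped. Family genes under other symbols were left out of this order, among them Mtch1 at 201 to 353 FPKM and Ucp2 at 72.4 to 213 FPKM. The order of neighbours was not sharp, since Slc25a3 and Slc25a4 overlapped in range, as did Slc25a1 with Slc25a12, at 34.2 ± 5.51 FPKM untreated.

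**Figure D1:**
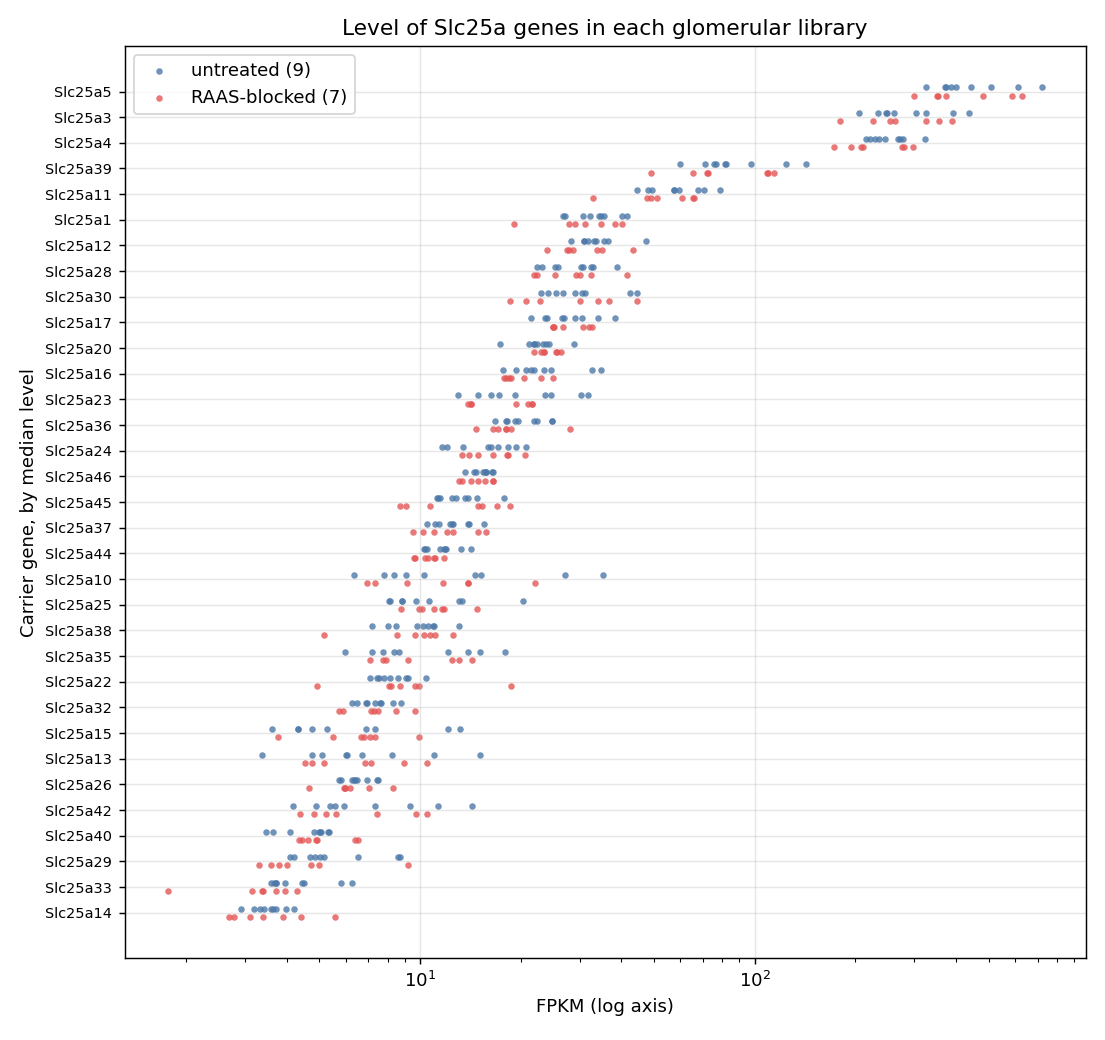
FPKM on a log axis for each carrier drawn, with 1 point per library coloured by group and genes ordered by median. Slc25a5, Slc25a3 and Slc25a4 stand above the rest, and the untreated and RAAS-blocked points overlap for every gene.

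The lowest members were Slc25a33, a pyrimidine nucleotide carrier with 1.77 to 6.29 FPKM, and Slc25a14, an uncoupling-protein-like carrier with 2.70 to 5.56 FPKM. Just outside the rule was Slc25a34, which reached 1 FPKM in 6 libraries and ran from 0.313 to 2.47 FPKM. The other 7 left out were Slc25a43, Slc25a27 and Slc25a21, with medians of 0.705, 0.652 and 0.391 FPKM, and Slc25a18, Slc25a2, Slc25a31 and Slc25a41, whose highest values were 0.265, 0.215, 0.111 and 0.0967 FPKM. Slc25a31 encodes the testis form of the ADP/ATP translocase and Slc25a18 the glutamate carrier 2; their paralogs Slc25a4, Slc25a5 and Slc25a22 were members.

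Spread between libraries differed among members. Slc25a10, the dicarboxylate carrier that exchanges malate or succinate for phosphate, varied 5.56-fold between its lowest and highest library. Slc25a13, the aspartate-glutamate carrier called citrin, varied 4.49-fold, Slc25a22, the glutamate carrier 1, 3.80-fold, and Slc25a15, the ornithine carrier of the urea cycle, 3.65-fold. Slc25a46, an outer membrane protein of mitochondrial dynamics, varied least at 1.27-fold. Untreated replicate 4 held the highest value for 13 members and untreated replicate 1 for 7. RAAS-blocked replicate 4, with the fewest symbols above 0, held the lowest value for 13 members, and untreated replicate 0 for 8.

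The treatment comparison asked whether RAAS blockade changed the carriers. No member passed in limma, a linear model fitted to log2(FPKM + 1) over all genes with Benjamini-Hochberg adjustment, at an adjusted p under 0.05. In all tested genes 0.00753% passed as higher in RAAS-blocked libraries and 0.00753% as lower, that is 1 gene each way. At an unadjusted p under 0.05 there was 1 of 34 members, lower, against 3.42% of all genes lower and 2.71% higher. An exact Wilcoxon test per gene passed 0 members after adjustment, and 0 of all genes. The libraries can be split in 11440 ways, which limits the smallest p of this test. That p is too large for a few genes to pass among 13286, so these counts of 0 are not a further check. Without adjustment the Wilcoxon test gave 1 of 34 members with p under 0.05, against 5.7% of all genes. No member had groups that did not overlap; of all genes, 0.0376% lay wholly above and 0.0226% wholly below in RAAS-blocked libraries. Since differences in these data carry the errors given for each gene, the absence of calls does not show that levels were alike.

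By direction alone 25 of the 34 estimates were lower in RAAS-blocked libraries, that is 73.5%, against 55.3% of all genes, and 9 were higher, against 44.7% of all genes. The median difference was -0.05 on the log2 scale over the members and -0.02 over all genes. With 1 library left out the split ran from 17 lower and 17 higher (without untreated replicate 4) to 28 lower and 6 higher (without untreated replicate 0, untreated replicate 3 or RAAS-blocked replicate 5). Without RAAS-blocked replicate 4 it was 18 lower and 16 higher. The median of the members ran from -0.11 to -0.0037 over these fits. With Slc34a1 and Umod as covariates, 11 were lower and 23 higher, with a median of 0.06. Beside these counts stand the markers: Umod had 193, 432 and 1168 FPKM as lowest, median and highest untreated value and 107, 215 and 527 FPKM RAAS-blocked, and the groups overlapped. For Slc34a1 the corresponding values were 6.70, 29.4 and 241 FPKM untreated and 2.59, 50.2 and 182 FPKM RAAS-blocked.

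**Figure D2:**
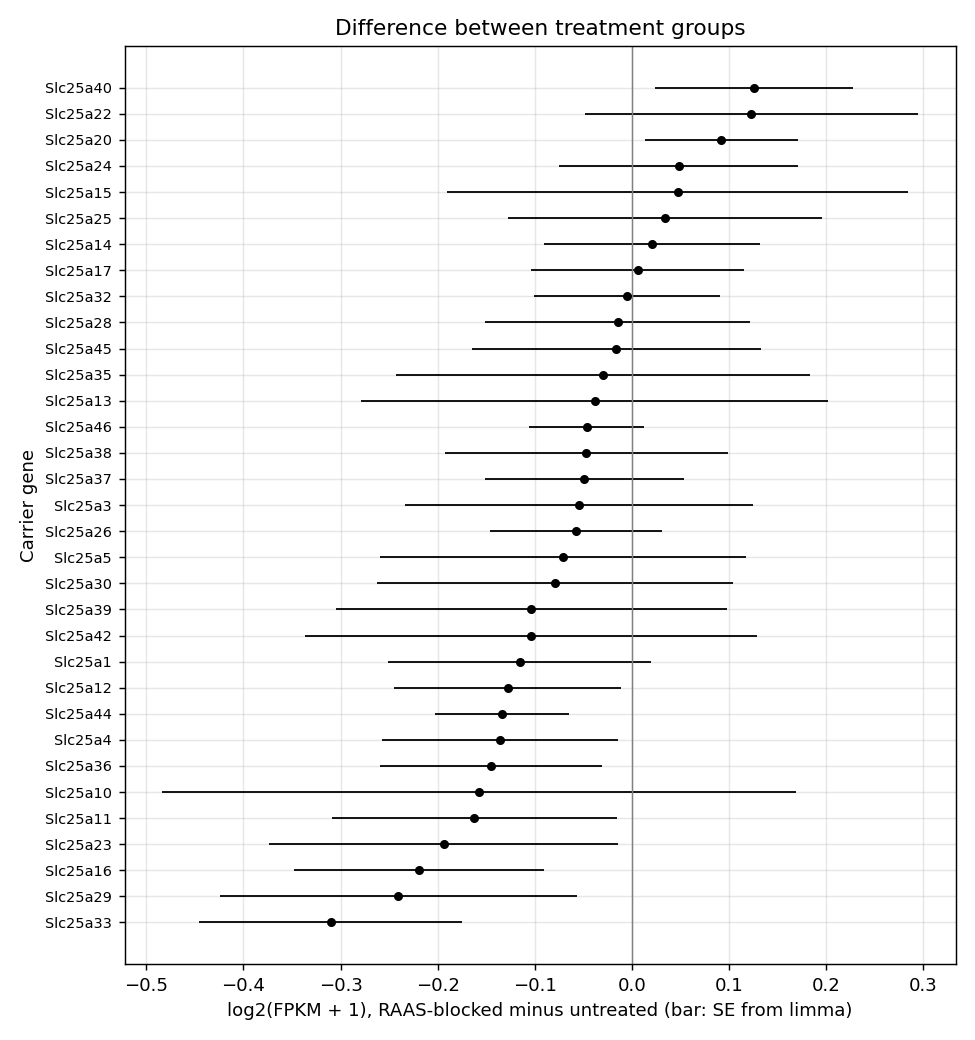
Difference in log2(FPKM + 1), RAAS-blocked minus untreated, for each carrier drawn, with bars of 1 SE from limma. Of the points 25 lie below 0, and 0 passed at an adjusted p under 0.05.

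Slc25a33, which carries pyrimidine nucleotides into the matrix, had the lowest treatment p. It ran from 3.59 through 3.95 to 6.29 FPKM untreated and from 1.77 through 3.39 to 4.30 FPKM RAAS-blocked. The lowest value was that of replicate 4, and the ranges overlapped. Its difference was -0.31 ± 0.14 (log2, SE), with an adjusted p of 0.795 by limma. Slc25a36, its paralog for the same class of substrates, ran from 16.8 through 19.6 to 24.9 FPKM and from 14.7 through 18.1 to 28.1 FPKM, with a difference of -0.15 ± 0.11 (adjusted p = 0.9).

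Slc25a44, a branched-chain amino acid carrier, was at 11.7 ± 1.32 FPKM (SD, n = 9) untreated and 10.6 ± 0.775 FPKM (SD, n = 7) RAAS-blocked. The difference was -0.13 ± 0.07 on the log2 scale, with an adjusted p of 0.82 by limma. Slc25a16, linked to coenzyme A in the matrix, ran from 17.8 through 21.9 to 34.8 FPKM untreated and from 17.8 through 18.7 to 25.0 FPKM RAAS-blocked. For Slc25a16 the difference was -0.22 ± 0.13 (adjusted p = 0.848). Slc25a29, a carrier of basic amino acids, had medians of 5.03 and 4.02 FPKM and overlapping ranges of 4.10 to 8.71 and 3.31 to 9.18 FPKM. Slc25a4 had a difference of -0.14 ± 0.12 (adjusted p = 0.914).

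On the higher side were Slc25a20, the carnitine-acylcarnitine carrier that brings fatty acids into the matrix, and Slc25a40, the paralog of Slc25a39. Slc25a20 was at 22.8 ± 3.04 FPKM (SD, n = 9) untreated and 24.2 ± 1.64 FPKM (SD, n = 7) RAAS-blocked, a log2 difference of 0.09 ± 0.08 with an adjusted p of 0.912 by limma. Slc25a40 ran from 3.47 through 4.99 to 5.35 FPKM and from 4.36 through 4.88 to 6.51 FPKM, a difference of 0.13 ± 0.10 (adjusted p = 0.901). In both the 2 groups overlapped.

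Single libraries moved several of these differences by over 1.5 times, none to a call. Without RAAS-blocked replicate 4 the difference was -0.07 for Slc25a4, -0.20 for Slc25a33 and -0.24 for Slc25a36. Without RAAS-blocked replicate 6 it was -0.39 for Slc25a29 and -0.09 for Slc25a36. Slc25a20 was at 0.05 without untreated replicate 6, and Slc25a40 at 0.08 without RAAS-blocked replicate 2.

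A further comparison asked how the carriers varied with the amount of tubule RNA. With the treatment group kept in the model, 17 of 34 members (50%) rose with Umod, against 12.3% of all genes, and 1 member (2.94%) fell, against 5.1% of all genes. With Slc34a1, 11 members (32.4%) rose, against 7.36% of all genes, and 1 (2.94%) fell, against 2.25%. A slope is the change in log2(FPKM + 1) of a carrier for each doubling of the marker's FPKM + 1, and a gene rose or fell where its adjusted p in limma was under 0.05. The median slope of the members was 0.18 on Umod, against -0.02 over all genes, and 0.07 on Slc34a1, against -0.01. Slopes were positive in 27 of 34 members for Umod, against 43.2% of all genes, and in 25 of 34 for Slc34a1, against 44.9%. Markers of other segments rose with Umod too, in 13 of 13 proximal tubule, 5 of 5 distal tubule and 1 of 7 collecting duct genes. A slope on Umod therefore cannot be assigned to the thick ascending limb alone. In these bulk samples more tubule cells and more carrier RNA per tubule cell cannot be told apart.

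The 2 markers moved together across libraries, with Pearson's r of 0.76 and Spearman's rho of 0.72 (n = 16, permutation p = 0.00078 and 0.00226, adjusted p = 0.0155 and 0.0313). With both markers in 1 model no member passed for either, by limma. Of all genes 1.29% rose and 0% fell with Umod there, and 0.873% rose and 0.0301% fell with Slc34a1. In that model 14 of 34 members for Umod, against 15.1% of all genes, had an unadjusted p under 0.05 in either direction. For Slc34a1 there were 4 of 34, against 6.11%. The median Umod slope of the members was 0.15 in this model, with 30 positive. Their median Slc34a1 slope was 0.0081, with 20 positive. No carrier could be assigned to 1 marker by a call, and the parts of the 2 tubule segments were not tested. Untreated replicates 1 and 4, the libraries richest in both markers, weighed on the counts. Without untreated replicate 4, 6 of 34 members rose with Slc34a1, against 4.67% of all genes. Without both replicates 3 of 34 rose with Slc34a1 (Slc25a10, Slc25a15 and Slc25a42), against 2.97% of all genes. With Umod 10 of 34 rose, against 5.53%.

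**Figure D3:**
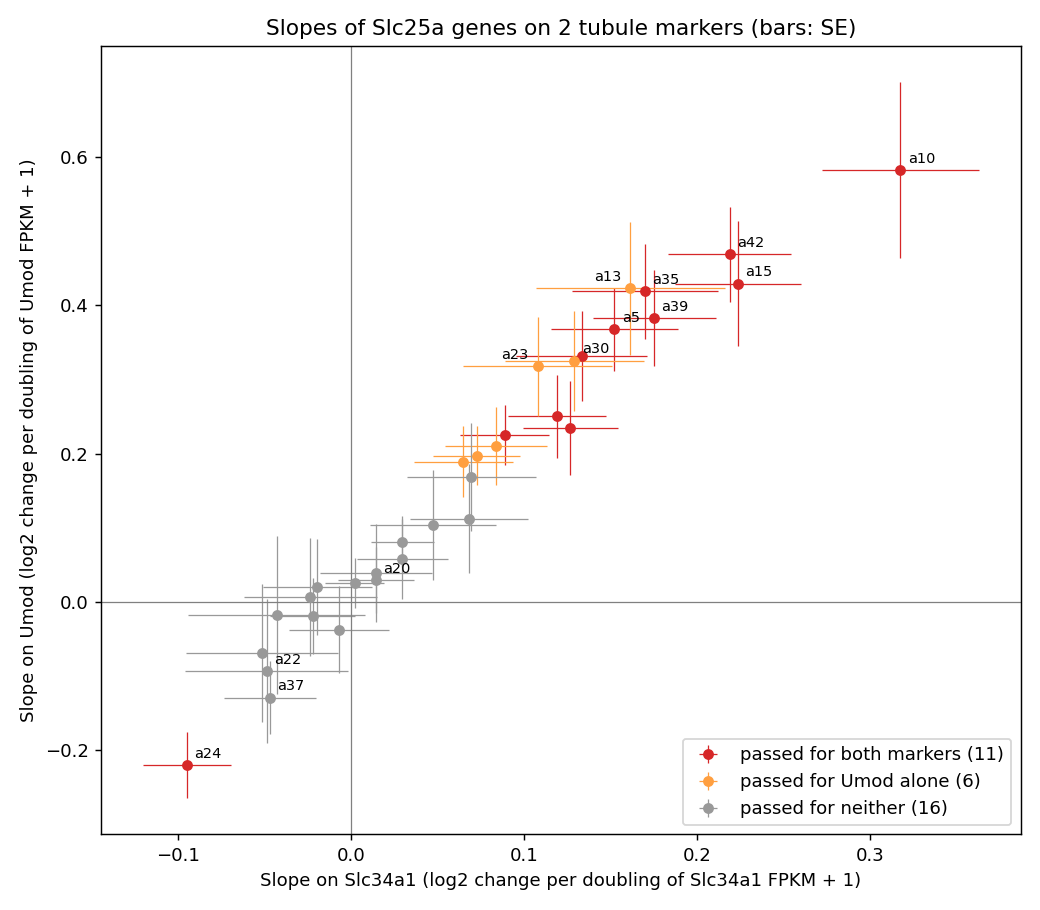
Slope of each carrier drawn on Slc34a1 (horizontal) and on Umod (vertical), in log2 change per doubling of the marker's FPKM + 1, with bars of 1 SE. The genes that passed for both markers (11 are drawn) and the 6 that passed for Umod alone are coloured, Slc25a10 has the largest slopes, and Slc25a24 is the one that fell with both.

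The starts of 3 genes at the ends of this order are shown, because Slc25a10 had the lowest p of the members for Slc34a1, Slc25a42 had the lowest for Umod, and Slc25a24 fell with both. Each line is the 150 bases before the annotated start in RefSeq (GRCm38.p6), read 5′ to 3′ on the strand of the gene, with CG pairs in capitals. The stretches are chr11:120491687-120491836 on the plus strand for Slc25a10, chr8:70212282-70212431 on the minus strand for Slc25a42 and chr3:109122999-109123148 on the plus strand for Slc25a24.
Slc25a10: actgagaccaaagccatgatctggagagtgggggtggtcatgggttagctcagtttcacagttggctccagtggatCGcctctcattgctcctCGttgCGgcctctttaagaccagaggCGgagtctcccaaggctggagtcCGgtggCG
Slc25a42: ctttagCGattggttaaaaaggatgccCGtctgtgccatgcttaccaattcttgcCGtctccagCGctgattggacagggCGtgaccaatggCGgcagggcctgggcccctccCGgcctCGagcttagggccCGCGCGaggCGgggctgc
Slc25a24: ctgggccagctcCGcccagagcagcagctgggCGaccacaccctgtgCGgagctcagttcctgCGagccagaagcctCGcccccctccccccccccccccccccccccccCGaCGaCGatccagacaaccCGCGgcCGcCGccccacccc
The printed stretches held 6, 12 and 12 CG pairs. RefSeq gave a window of 300 bases (250 before the start and 50 after) for 27 of the 34 members. Over the 250 bases before the start the 3 printed genes, in the same order, held 9, 18 and 14 CG pairs. Over that length the members had a median of 16 CG pairs, and all 8903 tested genes with a window also had 16.

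On both strands of the windows, the NRF1 motif (GCGCA, any base, then GCGC) was present in 1 of 27 members (Slc25a3) and in 11% of all windows. The ETS motif CCGGAAGT was present in 1 (Slc25a20) and in 8.57% of all, and the CRE motif TGACGTCA in 2 (Slc25a25 and Slc25a36) and in 3.43% of all. The ERR motif TNAAGGTCA was present in 0 members and 0.955% of all windows, and the HNF4 motif CAAAGTCCA in 0 members and 0.528%. The HNF1 motif (GTTAAT, any base, then ATTAAC) was in 0 windows of either set. These are matches of letters in a short window, and none of the 3 printed genes had one.

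Among the adenine nucleotide and phosphate carriers, 7 of 11 members rose with Umod and 1 fell, and 4 rose with Slc34a1 and 1 fell. Slc25a5 rose by 0.37 ± 0.06 (SE) per doubling of Umod, with an adjusted p of 0.000367 by limma. It ran from 324 through 399 to 720 FPKM untreated, and its highest library was the one richest in Umod. Slc25a3 rose by 0.33 ± 0.06 (adjusted p = 0.00156) and Slc25a4 by 0.23 ± 0.04 (adjusted p = 0.00126). Slc25a42, which brings coenzyme A into the matrix, had low levels of 4.18 to 14.3 FPKM untreated and 4.40 to 10.5 FPKM RAAS-blocked. It rose by 0.47 ± 0.06 with Umod (adjusted p = 0.000153) and by 0.22 ± 0.04 with Slc34a1 (adjusted p = 0.000799).

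Slc25a23, Slc25a24 and Slc25a25 are calcium-regulated carriers that exchange ATP-Mg for phosphate, and their slopes had both signs. Slc25a23 rose with Umod by 0.32 ± 0.07 (adjusted p = 0.00385 by limma), and its untreated libraries ran from 13 to 31.7 FPKM. Slc25a24 fell with Umod by 0.22 ± 0.04 per doubling (adjusted p = 0.00303) and with Slc34a1 by 0.09 ± 0.03 (adjusted p = 0.0283). It was at 11.6 FPKM in untreated replicate 1 and 12.1 FPKM in untreated replicate 4, its lowest libraries, and at 20.7 FPKM in untreated replicate 8, where Slc34a1 was 6.70 FPKM. The call of Slc25a24 for Slc34a1 was lost without untreated replicate 0, 1, 4 or 8, at adjusted p of 0.0531, 0.0774, 0.0912 and 0.0681. Slc25a25 had a Umod slope of -0.07 ± 0.09 (adjusted p = 0.645). Per library the ratio of Slc25a23 to Slc25a24 ran from 0.691 in RAAS-blocked replicate 0 to 2.63 in untreated replicate 4, with a median of 1.06.

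In the rest of this group Slc25a17, a peroxisomal carrier of coenzyme A and related cofactors, rose with Umod by 0.20 ± 0.04 (adjusted p = 0.00294 by limma). Slc25a16 rose by 0.21 ± 0.05 (adjusted p = 0.0121). Slc25a33 and Slc25a36 had Umod slopes of 0.11 ± 0.07 and 0.04 ± 0.07 and did not pass. The ratio of Slc25a33 to Slc25a36 had a median of 0.201, and its lowest value of 0.0631 came from RAAS-blocked replicate 4, which also held the highest Slc25a36.

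All 3 carboxylate carriers had positive slopes, and 2 rose with each marker. Slc25a10 had the largest slope of all members on both, 0.32 ± 0.05 per doubling of Slc34a1 (adjusted p = 0.000246 by limma) and 0.58 ± 0.12 per doubling of Umod (adjusted p = 0.00331). Its lowest, median and highest values were 6.33, 10.3 and 35.2 FPKM untreated and 6.96, 11.7 and 22.1 FPKM RAAS-blocked. The highest values were 35.2 and 27.2 FPKM in untreated replicates 1 and 4, the 2 libraries with the highest Slc34a1 (241 and 237 FPKM). Slc25a11 rose by 0.12 ± 0.03 with Slc34a1 (adjusted p = 0.014) and by 0.25 ± 0.06 with Umod (adjusted p = 0.00602). Slc25a1, which exports citrate for fatty acid synthesis, had slopes of 0.05 ± 0.04 and 0.10 ± 0.07 (adjusted p = 0.458 and 0.355).

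Of 8 amino acid carriers, 4 rose with Umod and 2 of these with Slc34a1. Slc25a15 ran from 3.61 through 5.29 to 13.2 FPKM untreated and from 3.77 through 6.81 to 9.92 FPKM RAAS-blocked. It rose by 0.22 ± 0.04 with Slc34a1 (adjusted p = 0.000776 by limma) and by 0.43 ± 0.08 with Umod (adjusted p = 0.00264). Slc25a45 rose by 0.13 ± 0.03 with Slc34a1 (adjusted p = 0.00719) and by 0.23 ± 0.06 with Umod (adjusted p = 0.0175). The aspartate-glutamate carriers Slc25a12 and Slc25a13, which feed the malate-aspartate shuttle, rose with Umod by 0.19 ± 0.05 and 0.42 ± 0.09 (adjusted p = 0.0125 and 0.00414). The ratio of Slc25a12 to Slc25a13 ran from 3.14 in untreated replicate 4 to 9.95 in untreated replicate 0, with a median of 4.76; Umod was 1168 and 193 FPKM in these 2 libraries. Slc25a22, Slc25a29, Slc25a38 (a glycine carrier of haem synthesis) and Slc25a44 passed for neither marker.

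Among the carriers of cofactors, carnitine, glutathione and iron, Slc25a39 rose with Umod by 0.38 ± 0.06 (adjusted p = 0.000838 by limma) and with Slc34a1 by 0.18 ± 0.04 (adjusted p = 0.00465). Its paralog Slc25a40 had a Umod slope of -0.04 ± 0.06 (adjusted p = 0.695). The ratio of Slc25a39 to Slc25a40 ran from 10.6 in RAAS-blocked replicate 4 to 39.3 in untreated replicate 4, with a median of 16.2. Slc25a20 passed for neither marker, with slopes of 0.03 ± 0.05 on Umod and 0.01 ± 0.02 on Slc34a1 (adjusted p = 0.695 and 0.734).

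The mitoferrins Slc25a37 and Slc25a28 import iron into mitochondria, and neither passed. Slc25a37, the erythroid form, had slopes of -0.13 ± 0.05 on Umod (adjusted p = 0.0859 by limma) and -0.05 ± 0.03 on Slc34a1 (adjusted p = 0.3). It ran from 10.5 through 12.5 to 15.5 FPKM untreated and from 9.50 through 12.0 to 15.7 FPKM RAAS-blocked. The ratio of Slc25a28 to Slc25a37 ran from 1.60 to 3.72, with a median of 2.37. Erythroid markers summed to 38.0 to 365 FPKM in untreated and 5.57 to 305 FPKM in RAAS-blocked libraries, and their part in the Slc25a37 level was not tested. Slc25a26, which carries S-adenosylmethionine, and Slc25a32, linked to folate and FAD, had Umod slopes of -0.02 ± 0.05 and 0.06 ± 0.05.

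Of the uncoupling-protein-like carriers Slc25a30, first described in kidney, rose with Umod by 0.33 ± 0.07 (adjusted p = 0.00359 by limma), and Slc25a14 had a slope of 0.02 ± 0.06. Slc25a35, whose substrate is not assigned, ran from 5.98 through 8.66 to 18.0 FPKM untreated and from 7.11 through 9.23 to 14.3 FPKM RAAS-blocked. It rose with Umod by 0.42 ± 0.06 (adjusted p = 0.000359) and with Slc34a1 by 0.17 ± 0.04 (adjusted p = 0.0181). Slc25a46 had a Umod slope of 0.02 ± 0.03.

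**Figure D4:**
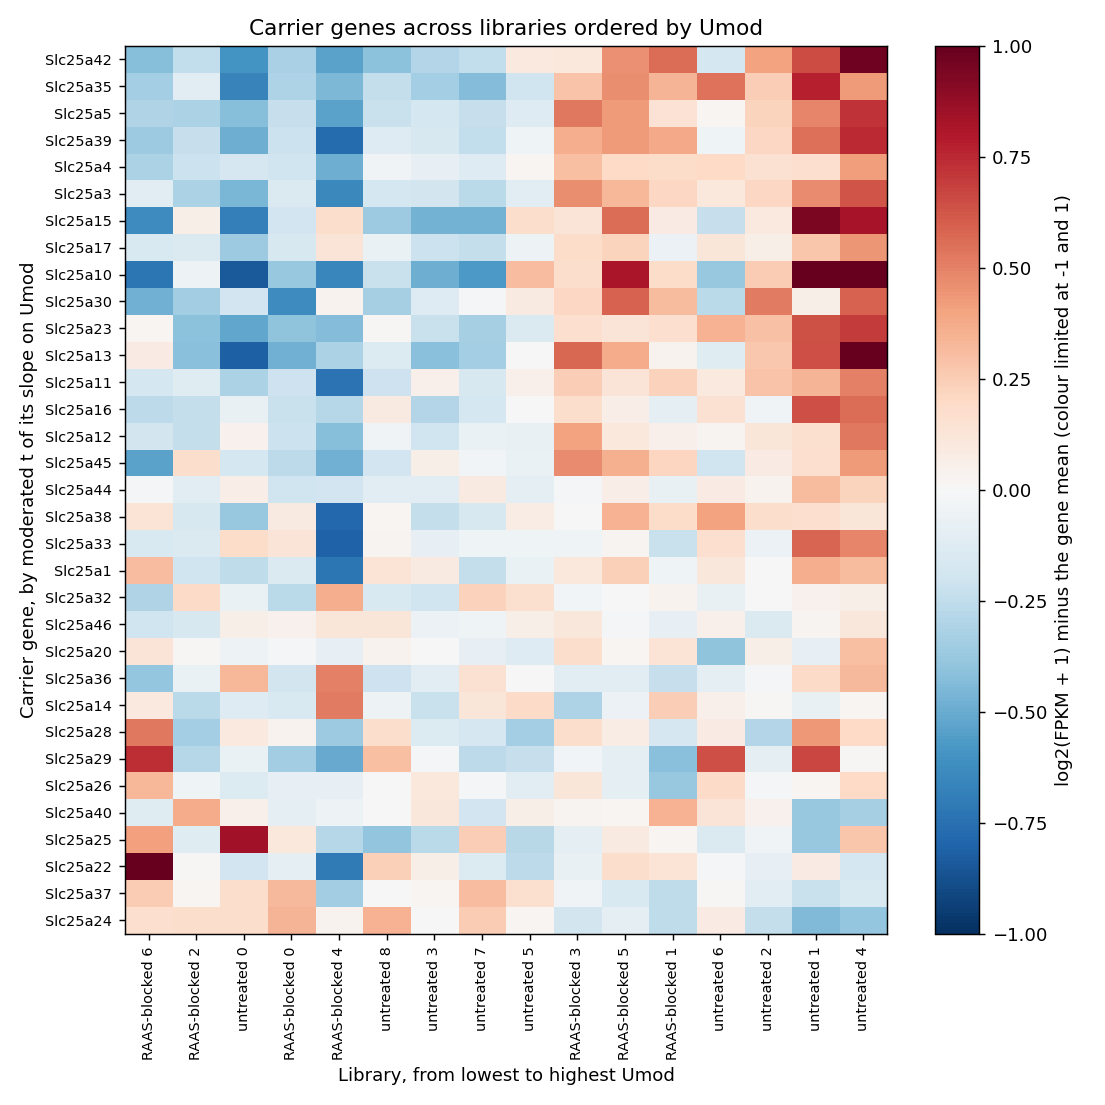
log2(FPKM + 1) of each carrier drawn minus its mean, with the 16 libraries ordered from lowest to highest Umod and genes by the moderated t of the Umod slope. The upper genes, from Slc25a42 to Slc25a45, are above their mean mostly in the 7 libraries richest in Umod, and Slc25a24 at the bottom shows the opposite.

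Correlations were computed over the same 16 libraries and values, so they are not separate evidence. Some relations that passed in limma passed by Pearson's r but not by Spearman's rho. Adjusted permutation p for rho was 0.0944 for Slc25a45 with Umod, 0.0535 for Slc25a15 with Umod and 0.076 for Slc25a4 with Slc34a1. The correlations below were picked from the greatest slopes. Among the 68 correlations (34 carriers and 2 markers), Slc25a10 with Slc34a1 had Pearson's r of 0.88 and Spearman's rho of 0.93. Both had a permutation p of 1e-05, the smallest that the resamples can give, and adjusted p over all genes of 0.000786 and 0.000692. Without untreated replicate 8 and RAAS-blocked replicate 6, the 2 libraries farthest from the median of Slc34a1, r was 0.94. Within the untreated libraries r was 0.89, and it was 0.89 within the RAAS-blocked ones.

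Slc25a42 had r of 0.86 and rho of 0.87 with Umod (permutation p = 1e-05 and 2e-05, adjusted 0.000654 and 0.00166), and 0.83 without untreated replicate 4 and RAAS-blocked replicate 6. Within groups r was 0.90 and 0.88. Slc25a5 had r of 0.84 and rho of 0.87 with Umod (permutation p = 1e-05 for both, adjusted 0.000654 and 0.00132), 0.82 without the same 2 libraries, and 0.91 and 0.83 within groups. Slc25a24 had r of -0.78 and rho of -0.78 (permutation p = 0.00042 and 0.00063, adjusted 0.0072 and 0.0101), -0.76 without the 2 libraries, and -0.80 and -0.84 within groups. The direction was thus the same in both groups for these 4 relations, but the strength was not always alike for others. With Slc34a1, r in untreated and RAAS-blocked libraries was -0.91 and -0.40 for Slc25a24 and 0.84 and 0.50 for Slc25a3. For Slc25a45 it was 0.79 and 0.85.

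**Figure D5:**
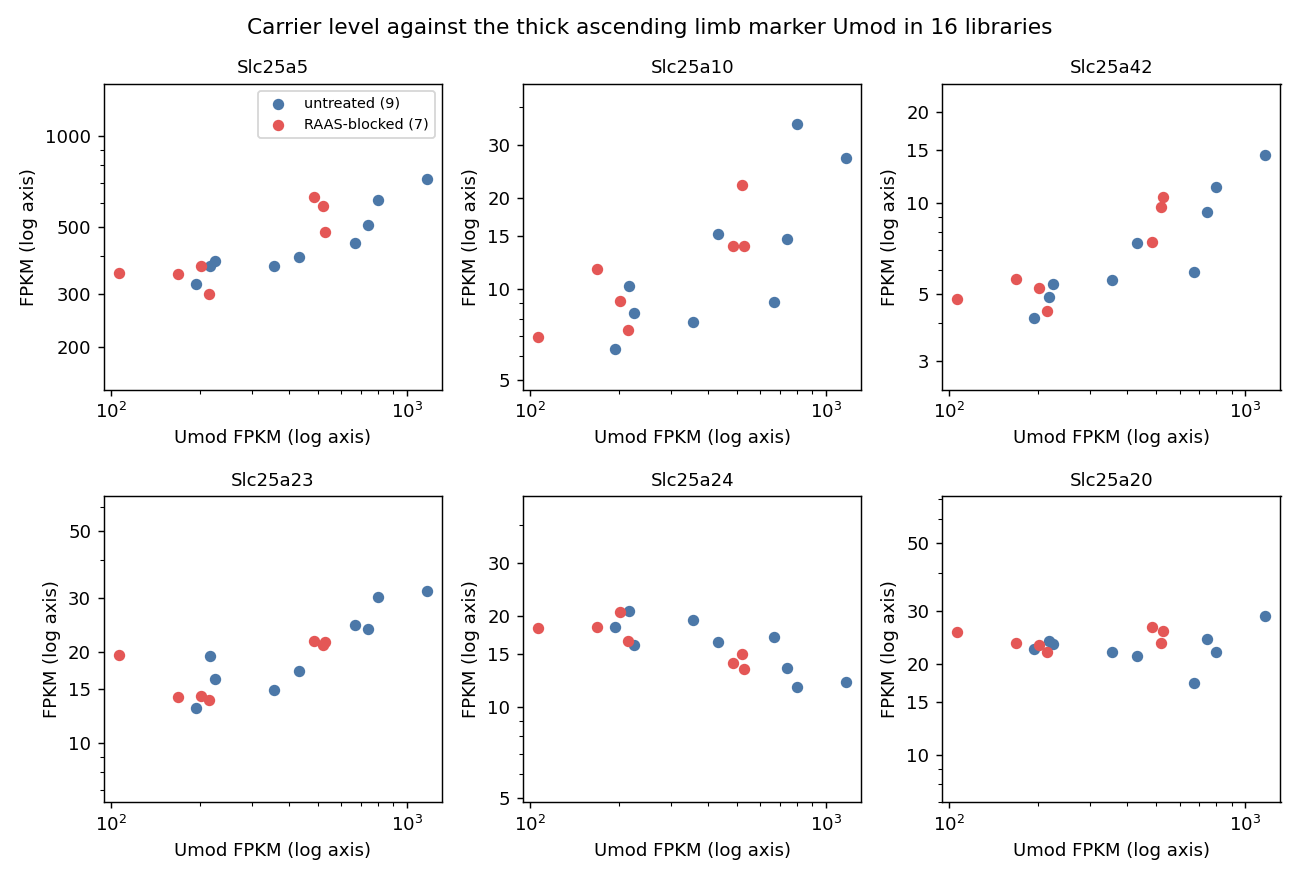
FPKM of single carriers against Umod FPKM, both on log axes, with 1 point per library coloured by group. Slc25a5 and Slc25a42 are higher in the libraries richer in Umod and Slc25a24 is lower, in both groups.

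A test of the slope difference between groups passed 0 members for Slc34a1 and 0 for Umod by limma, against 0% of all genes higher and 0.00753% lower for Slc34a1 and 0% either way for Umod. At an unadjusted p under 0.05 there were 2 of 34 members for Slc34a1. Slc25a13 had the lower and Slc25a40 the higher slope in RAAS-blocked libraries, against 6.38% and 6.96% of all genes. For Umod there was 1 of 34, Slc25a26 with the lower slope, against 3.82% of all genes lower and 5.13% higher. For comparison the podocyte marker Nphs1, the nephrin gene, was put in place of the tubule markers. Nphs1 ran only from 181 to 470 FPKM, a narrower range than either tubule marker, and its slopes had larger errors. For Slc25a5 the SE was 0.24 on Nphs1 and 0.06 on Umod, so the counts for these markers are not like for like. With Nphs1 1 of 34 members rose, against 3.52% of all genes, and 0 fell, against 1.3%. At an unadjusted p under 0.05, 4 of 34 were higher and 3 of 34 lower, against 12.3% and 8.27% of all genes. The member that rose was Slc25a29, with a slope of 0.68 ± 0.16 (adjusted p = 0.0228 by limma). RAAS-blocked replicate 6 held both the highest Nphs1 (470 FPKM) and the highest Slc25a29 (9.18 FPKM), and without it 0 members passed.

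Family members under other symbols and neighbouring pathways were read from the same fits. Of 4 further family genes tested, Mtch1, Mtch2, Ucp2 and Mcart1 (now Slc25a51, the NAD carrier), none passed for treatment or Slc34a1 and Mtch2 rose with Umod, by 0.13 ± 0.03 (adjusted p = 0.0157 by limma). Mtch1 ran from 246 through 266 to 353 FPKM untreated and from 201 through 228 to 264 FPKM RAAS-blocked. Its difference was -0.28 ± 0.09 on the log2 scale (adjusted p = 0.639 by limma). Mcart1 ran from 23.5 through 27.6 to 31.5 FPKM and from 21.3 through 25.1 to 25.6 FPKM, a difference of -0.18 ± 0.06 (adjusted p = 0.668). The sideroflexin Sfxn4 was at medians of 1.46 and 1.93 FPKM, a difference of 0.20 ± 0.07 (adjusted p = 0.716).

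Lists of related enzymes and transport genes were read beside the carriers, against 12.3% of all genes that rose with Umod and 7.36% with Slc34a1. Of 15 enzymes of the citric acid cycle, 15 rose with Umod, with slopes of 0.17 to 0.51 and a median of 0.31, and 13 rose with Slc34a1. Of 11 enzymes of the malate-aspartate shuttle and citrate export, 9 rose with Umod (median slope 0.30) and 4 with Slc34a1. Among them Mdh1, the cytosolic malate dehydrogenase, rose by 0.25 ± 0.04 per doubling of Slc34a1 (adjusted p = 0.00168 by limma) and Aco1, the cytosolic aconitase, by 0.18 ± 0.03 (adjusted p = 0.000397). Of 7 genes of the carnitine shuttle, a list that includes the transporter gene Slc22a5, 5 rose with Umod (median slope 0.29). The carnitine-acylcarnitine carrier Slc25a20 did not pass. Of 19 other membrane transport genes, 7 rose and 1 fell with Umod (median slope 0.03). In each of these lists 0 genes passed for treatment.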

How the data were processed

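Libraries of total glomerular RNA were made with the Illumina TruSeq mRNA kit, per the labels' protocols. The authors deposited FPKM values, 1 column per library. Per the submitters' processing notes the tools were Cuffdiff 2.2.1, Cufflinks, TopHat2 2.0.8, FastQC and CASAVA 1.8.2 (roles unnamed). For genome build, annotation and strand nothing is stated in the sources used here. FPKM depends on the other RNAs counted, so an abundant RNA lowers the rest.

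From these, log2(FPKM + 1) was computed for genes at 1 FPKM or more in 7 or more libraries. It was fitted with limma 3.58.1 in R 4.3.3 (mean trend, robust moderation, two-sided), by group and then with log2 of a marker added. P-values were adjusted over all genes tested, with a threshold of 0.05. Adding 1 understates changes of low genes. Correlations used two-sided permutation tests. On simulated data with known changes, the fits recovered 53.7% of 67 treatment differences of 0.5 (log2) and 92.5% of 67 of 1. The known differences also included 66 of 2. For Slc34a1 slopes of 0.1 and 0.2 the fits recovered 28.4% and 71.6%. These shares hold for the simulated data only, and recovery in the 16 libraries was not tested. Relative depth, a rough estimate from the steps of low values, lay between 1.03 and 1.73 times that of untreated replicate 0. Of the low genes used, 61.4% to 73.9% lay on such steps, and RAAS-blocked replicate 4 had only 140 of them. No pair of libraries was identical.

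The 34 members and all gene lists were chosen with earlier results of these data known. Members with the highest levels, the lowest treatment p, the greatest slopes and those in paralog pairs were named, as were, from related lists, those lowest in treatment p and greatest in slope; others named were chosen after their values were seen. Alternatives changed pseudocount, filter, scaling, weights, variance model, test, covariates, replicate block and libraries. The replicate numbers of the labels were not used as pairs. Promoters came from RefSeq tables of GRCm38.p6. Of the members 1 is counted but not reported by name and not drawn.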

Additional observations from a re-analysis of the deposited data

Results flagged for a closer look

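In 5 of 68 groups of values (34 carriers in 2 groups) 1 library lay far from the others of its group, where chance at 1 in 20 would give 3.4. Slc25a22, the glutamate carrier 1, was at 18.8 FPKM in RAAS-blocked replicate 6, and the next library was at 9.93 FPKM. Slc25a29, the basic amino acid carrier, was at 9.18 FPKM in the same library, with the next at 5.0 FPKM. That library had the lowest Umod and Slc34a1 and the highest Nphs1 of all. Slc25a36, the pyrimidine nucleotide carrier, was at 28.1 FPKM in RAAS-blocked replicate 4, with the next at 18.7 FPKM. Slc25a25, the calcium-regulated ATP-Mg carrier, was at 20.3 FPKM in untreated replicate 0, with the next at 13.4 FPKM. Slc25a12, the aspartate-glutamate carrier, was at 47.3 FPKM in untreated replicate 4, the library with the highest Umod, with the next at 36.5 FPKM.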

How the results depend on the processing

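For treatment, and for the slope differences between groups, 0 members passed in all 27 and 25 settings. The 27 include the exact Wilcoxon test, whose smallest p is too large for a few genes to pass. Leaving out 1 library gave 6 to 13 of 34 members that rose with Slc34a1 (11 with all libraries), against 4.67% to 8.89% of all genes. With Slc34a1 0 to 1 fell, against 0.768% to 3.7%. With Umod 14 to 19 rose (17 with all libraries), against 8.24% to 15.1%, and 1 to 2 fell, against 2.3% to 8.42%. For Nphs1 leaving out 1 library gave 0 to 2 that rose, against 0.557% to 4.07%. Without untreated replicates 1 and 4 together, chosen after seeing the data, 3 of 34 rose and 0 fell with Slc34a1, against 2.97% and 0.399% of all genes. With Umod 10 rose, against 5.53%. Quantile normalization and library weights each gave 2 of 34 that fell with Umod, against 5.31% and 14.7% of all genes. For Nphs1, quantile normalization gave 0 that rose, a filter at 5 FPKM gave 0 and library weights gave 2. The shares of all genes were 2.04%, 4.88% and 7.02%. With the other marker as a covariate 0 rose and 0 fell, for Slc34a1 and for Umod alike. Of all genes 0.873% rose with Slc34a1 and 1.29% with Umod in those fits. The cause was not tested.

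Same-numbered libraries of the groups were not paired: 4 of 7 pairs had a correlation of deviations over 0.1, and 1 library correlated best with its own number. With a replicate block, over the 14 libraries with shared numbers, 0 members rose and 0 fell with Slc34a1, 1 rose (Slc25a35) and 0 fell with Umod, and 0 rose with Nphs1. At an unadjusted p under 0.05 there were 16 of 34 members for Slc34a1, against 17.7% of all genes, under the block. For Umod there were 18 of 34, against 17.9%. Of all genes 0.188% rose with Slc34a1 and 1.6% with Umod under it.

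Among single genes the Slc34a1 slope of Slc25a37 turned to 0.0084 with the replicate block and 0.011 with Umod as a covariate. The Umod slope of Slc25a22 ran from -0.13 to 0.036 with 1 library left out, turning positive without RAAS-blocked replicate 6, and the treatment difference of Slc25a4 to 0.022 with both markers as covariates. Without counts, the precision of low genes such as Slc25a33 cannot be given.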

Other observations

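Of 9 regulators of mitochondrial genes tested, 4 rose with Umod, against 12.3% of all genes, and 3 with Slc34a1, against 7.36%. The slopes of 2 were negative for each marker, and 0 passed for treatment in limma. Ppargc1a, the coactivator of mitochondrial biogenesis, ran from 3.40 through 6.26 to 15 FPKM untreated and from 2.68 through 4.79 to 9.59 FPKM RAAS-blocked. It rose by 0.62 ± 0.06 per doubling of Umod (adjusted p = 8.7e-06 by limma). Ppara, a receptor that drives fatty acid oxidation, rose by 0.32 ± 0.04 per doubling of Slc34a1 (adjusted p = 2.6e-05 by limma). Brp44l and Brp44, older symbols of the pyruvate carrier genes Mpc1 and Mpc2, rose with Umod by 0.41 ± 0.04 and 0.48 ± 0.06 (adjusted p = 1.5e-05 and 4.5e-05 by limma). Of 17 genes of mitochondrial protein import, 4 rose with Umod and 1 with Slc34a1, against 12.3% and 7.36% of all genes. Their Slc34a1 slopes were positive in 14 of 17, against 44.9% of all genes, with a median of 0.03, against -0.01. These genes, other than Ppara, were named after their values were seen.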
